A study of Mus musculus with 6 samples.

Results

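Desmosomes and hemidesmosomes tie the intermediate filaments of an epithelial cell to its neighbours and to the basement membrane. The 10 genes described here encode linkers of these junctions in the mouse kidney: Lad1, Evpl, Dst, Dsp, Ppl, Jup, Pkp2, Pkp4, Dsg2 and Plec. They were picked by name with the difference between Pkd1 KO and control kidneys already known, as genes lower in Pkd1 KO, so that difference is given below as a description and carries no test. The count tables held 56923 gene identifiers, all 10 genes matched 1 identifier each, and all 10 were among the 18273 genes that passed the filter on low counts.

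RNA was sequenced from 6 whole, snap-frozen kidneys of male mice, 3 with an induced Pkd1 deletion and 3 controls. Pkd1 encodes polycystin-1, the membrane protein whose gene is mutated in most families with dominant polycystic kidney disease. The Pkd1 KO mice carried Pkd1flox/flox, Pax8rtTA and Tet-O-Cre, in which the Pax8 promoter drives a doxycycline-dependent activator in renal tubule cells, so that deletion can reach only cells that express Pax8. The control mice carried Pkd1flox/flox and Tet-O-Cre but no Pax8rtTA. Floxed Pkd1, Tet-O-Cre and doxycycline were therefore common to both groups, the drug at 2 mg/ml with 5% sucrose in the drinking water from postnatal day 28 to day 42 (14 days), with kidneys collected at 10 weeks.

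In a desmosome, cadherins of the desmoglein and desmocollin families bind across the gap between cells, the armadillo proteins plakoglobin and plakophilin sit on their tails, and desmoplakin joins this plaque to keratin filaments. In a hemidesmosome, the plakins plectin and dystonin join keratin to the integrin α6β4 that grips laminin, and anchoring filaments continue into the basement membrane. Renal tubules are simple epithelia with small desmosomes and keratins 8 and 18, whereas envoplakin, periplakin and the full hemidesmosome are best known from the epidermis.

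Gene counts per library were 51966474, 62983791 and 61614713 in Pkd1 KO 1 to 3, against 50456629, 55548316 and 45020173 in control 1 to 3. Values are CPM, the gene's reads scaled to a common library size with TMM, and fold changes are on the log2 scale, Pkd1 KO over control, with the standard error (SE) of edgeR's quasi-likelihood fit across all genes tested. Pkd1 itself ranged over 8.77 to 10.0 CPM in Pkd1 KO kidneys and 23.6 to 46.4 CPM in controls (log2 fold change -1.85 ± 0.24 SE, adjusted p = 0.00234), and was at -0.34 with adjusted p = 0.0643 in the GC and length fit described next. All Pkd1 KO libraries bear the name of 1 sequencing project and all controls that of another, so an effect of project cannot be told apart from that of genotype here. Control 2 stood apart from the other controls in long genes: its log2 CPM minus the mean of controls 1 and 3 had a median of 0.42 in the longest eighth of genes and -0.31 in the shortest. Each fold change of the 10 genes is therefore also given without control 2, and from a second edgeR fit in which a smooth curve of GC content and exon length was removed from each library (the GC and length fit).

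All 10 linker genes were lower in Pkd1 KO kidneys, with log2 fold changes between -3.22 and -0.52 and a median of -1.64, where the median over all genes tested was 0.03. The 3 Pkd1 KO values lay below the 3 control values for 10 of 10, where 30.0% of all genes tested showed this. All 10 were among the genes called lower at an adjusted p of 0.05 (24.2% of genes tested). With GC content and length removed, the median was -0.74 against 0.0007 over all genes, and 6 of 10 were called lower, where 17.4% of genes were. Because the genes were chosen on this contrast in these same kidneys, nothing is read from the counts of either fit. In whole tissue, fewer cells of a type and less RNA per cell cannot be told apart.

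**Figure D1:**
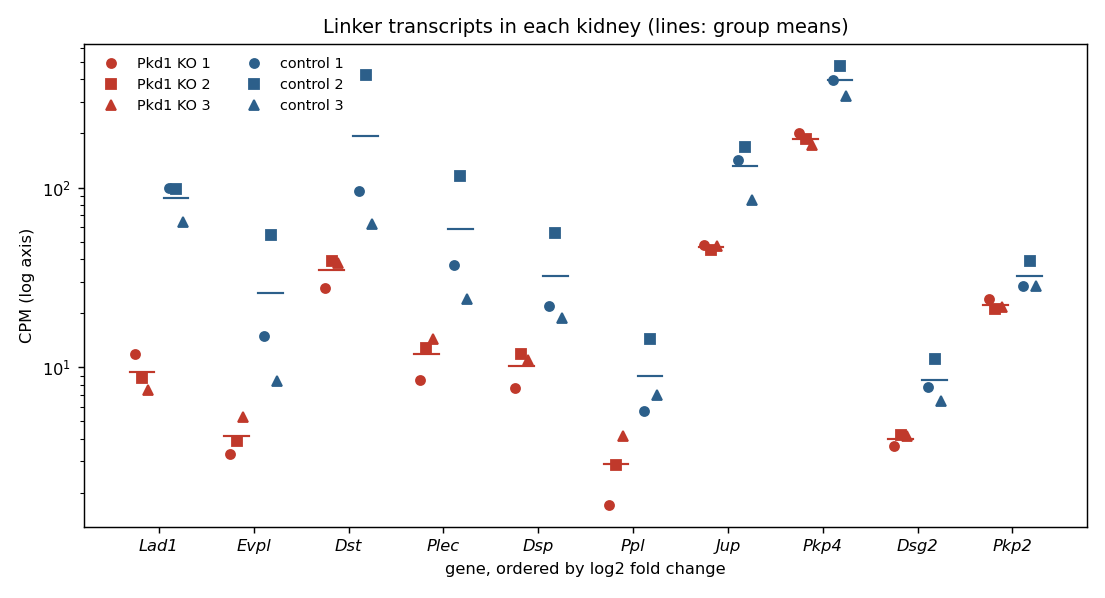
CPM of the 10 linker genes (log axis) in each of 3 Pkd1 KO kidneys and 3 control kidneys, 1 point per kidney, with genes ordered by log2 fold change. The Pkd1 KO points lie below the control points for every gene, and control 2 is the highest control for 9 of the 10.

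Ladinin 1 (Lad1, ENSMUSG00000041782), a protein of the anchoring filaments that run from hemidesmosomes into the basement membrane, was furthest from the control level. Lad1 stood at 11.9, 8.69 and 7.51 CPM in Pkd1 KO 1 to 3, against 99.3, 98.2 and 64.4 CPM in control 1 to 3. The groups were far apart, with the lowest control 5.40 times the highest Pkd1 KO kidney. Its mean was 9.38 ± 2.29 CPM in Pkd1 KO and 87.3 ± 19.9 CPM in controls (SD, n = 3 each), or 0.107 times the control mean (log2 fold change -3.22 ± 0.24 SE). Only 2 of the 18273 genes tested had a lower fold change. Of the 10 genes Lad1 moved least when control 2 was left out, and it stayed the lowest in the GC and length fit. Its log2 fold change was -3.17 without control 2, and -2.65 ± 0.19 (SE) in the GC and length fit, in which 11 genes were lower. Lad1 stayed at -2.63 in the GC and length fit when control 2 was also left out. Its exons total 3400 bases, near the median of 3787 bases over all genes, and its GC content of 57.8% is above the median of 49.4%.

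Promoter sequences from RefSeq (GRCm38.p6, 250 bases before the annotated start) were held for 5 of the 10 genes in 7 windows. They are shown for Lad1, the gene with the largest difference, for the plakin Dsp and for the plaque protein Jup, so that the start-site sequence of genes that were low together can be compared. Capitals mark the SP and KLF box GGGCGG on either strand, and Lad1 has none.
Lad1: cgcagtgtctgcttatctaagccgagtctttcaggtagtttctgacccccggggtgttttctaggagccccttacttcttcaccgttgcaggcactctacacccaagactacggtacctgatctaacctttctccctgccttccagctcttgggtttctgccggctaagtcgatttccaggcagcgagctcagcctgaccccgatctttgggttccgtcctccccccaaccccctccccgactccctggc
Dsp: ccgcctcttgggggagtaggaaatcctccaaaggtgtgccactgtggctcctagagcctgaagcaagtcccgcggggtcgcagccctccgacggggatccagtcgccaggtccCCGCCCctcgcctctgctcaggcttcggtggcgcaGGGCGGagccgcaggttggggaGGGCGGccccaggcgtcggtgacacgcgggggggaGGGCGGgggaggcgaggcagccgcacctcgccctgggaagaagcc
Jup: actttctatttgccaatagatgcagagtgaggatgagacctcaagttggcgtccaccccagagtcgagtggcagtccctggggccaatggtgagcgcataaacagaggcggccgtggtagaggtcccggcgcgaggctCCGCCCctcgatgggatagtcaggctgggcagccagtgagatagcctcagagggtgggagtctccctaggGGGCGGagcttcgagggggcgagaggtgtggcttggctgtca

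The Lad1 window is chr1:135818348-135818597 on the plus strand, with 57.6% GC. The Dsp window is chr13:38151044-38151293 on the plus strand, with 72.4% GC and 4 boxes whose first bases lie at -137, -102, -80 and -45 from the start. The Jup window is chr11:100397791-100398040 on the minus strand, with 62.0% GC and 2 boxes at -112 and -42. GGGCGG occurred in 4 of the 7 windows, in 4 of the 5 genes, and in 32.7% of 32851 RefSeq mouse promoters of the same length. Other motifs were searched on both strands, and matches could overlap: AACCGG, the core bound by grainyhead-like proteins (5.62% of promoters), TGANTCA, the AP-1 site (6.75%), and CACCTG, an E-box bound by SNAIL and ZEB proteins (17.2%). None of them is in the Lad1, Dsp or Jup window, while CACCTG lies in 1 window of Dst (at -137) and 1 of Pkp4 (at -47). These matches describe letters and not binding.

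Desmoplakin (Dsp, ENSMUSG00000054889), the plakin that joins the desmosomal plaque to keratin, stood at 7.68, 11.8 and 11.1 CPM in Pkd1 KO 1 to 3, against 21.8, 55.6 and 18.9 CPM in control 1 to 3. The groups did not overlap, and control 2 was the outlying control. Its mean was 10.2 ± 2.21 CPM in Pkd1 KO and 32.1 ± 20.4 CPM in controls (SD, n = 3 each). The corresponding log2 fold change was -1.66 ± 0.39 (SE). It was -1.03 without control 2 and -0.78 ± 0.26 in the GC and length fit. When control 2 was also left out of the GC and length fit, Dsp was at -0.39.

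Envoplakin (Evpl, ENSMUSG00000034282) and periplakin (Ppl, ENSMUSG00000039457) are partner plakins that bind keratin and, in the epidermis, build the cornified envelope. Evpl stood at 3.28, 3.90 and 5.30 CPM in Pkd1 KO 1 to 3, against 14.9, 54.2 and 8.44 CPM in control 1 to 3. The lowest control was 1.59 times the highest Pkd1 KO kidney, and control 2 was 4.65 times the mean of the other 2 controls. The log2 fold change of Evpl was -2.63 ± 0.61 (SE), -1.52 without control 2 and -1.20 ± 0.41 in the GC and length fit. Leaving control 2 out of the GC and length fit brought Evpl to -0.44. Ppl, the scarcer partner, stood at 1.72, 2.87 and 4.15 CPM in Pkd1 KO 1 to 3, against 5.73, 14.3 and 6.98 CPM in control 1 to 3. Its groups did not overlap either, with Pkd1 KO 3 and control 1 the closest pair. For Ppl the log2 fold change was -1.62 ± 0.40 (SE), -1.15 without control 2 and -0.80 ± 0.33 in the GC and length fit, where it was not among the called genes. Without control 2 that fit put Ppl at -0.51.

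Dystonin (Dst, ENSMUSG00000026131), whose epithelial form is the hemidesmosomal antigen BPAG1 and whose other forms serve muscle and nerve, is the longest gene of the 10, with 41155 exon bases and 20 annotated transcripts that the gene count adds together. Dst stood at 27.6, 39.1 and 38.3 CPM in Pkd1 KO 1 to 3, against 95.8, 421.7 and 62.4 CPM in control 1 to 3. The coefficient of variation was 18.3% in Pkd1 KO and 103% in controls. Control 2 was 5.33 times the mean of controls 1 and 3, the widest such gap among the 10 genes. The log2 fold change of Dst was -2.47 ± 0.63 (SE), -1.21 without control 2 and -0.83 ± 0.30 in the GC and length fit, where it was not called. Dst was at -0.33 in the GC and length fit when control 2 was also left out.

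Plectin (Plec, ENSMUSG00000022565), the plakin that ties keratin to integrin β4 and also links filaments at other sites in the cell, is the second-longest gene, with 18113 exon bases, 22 annotated transcripts and a GC content of 61.3%. Plec stood at 8.49, 12.9 and 14.4 CPM in Pkd1 KO 1 to 3, against 36.9, 115.3 and 23.9 CPM in control 1 to 3. The lowest control was 1.66 times the highest Pkd1 KO kidney. For Plec the log2 fold change was -2.30 ± 0.53 (SE) and -1.39 without control 2. In the GC and length fit it was -0.25 ± 0.22, and 0.0212 when control 2 was also left out, so its direction was not kept there.

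Plakoglobin (Jup, ENSMUSG00000001552), the armadillo protein shared by desmosomes and adherens junctions, stood at 47.7, 45.0 and 47.0 CPM in Pkd1 KO 1 to 3, against 142.4, 168.5 and 85.0 CPM in control 1 to 3. The Pkd1 KO kidneys were nearly equal, with a coefficient of variation of 3.03%, against 32.4% in controls. The log2 fold change of Jup was -1.50 ± 0.23 (SE), -1.33 without control 2 and -0.39 ± 0.12 in the GC and length fit. Jup thus moved little with control 2 and much with GC content and length.

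Plakophilin 4 (Pkp4, ENSMUSG00000026991), a relative of p120 catenin found at adherens and desmosomal junctions, had the highest counts of the 10. Pkp4 stood at 200.3, 185.4 and 172.9 CPM in Pkd1 KO 1 to 3, against 394.7, 474.7 and 323.3 CPM in control 1 to 3. The groups did not overlap, and the mean in Pkd1 KO was 0.468 times the control mean. For Pkp4 the log2 fold change was -1.09 ± 0.17 (SE), -0.98 without control 2 and -0.62 ± 0.13 in the GC and length fit. Plakophilin 2 (Pkp2, ENSMUSG00000041957), the plakophilin of simple epithelia and heart, had the smallest difference of the 10. It stood at 24.1, 21.02 and 21.8 CPM in Pkd1 KO 1 to 3, against 28.5, 39.2 and 28.4 CPM in control 1 to 3. The gap between the groups was narrow, with the lowest control 1.18 times the highest Pkd1 KO kidney. The log2 fold change of Pkp2 was -0.52 ± 0.17 (SE), -0.38 without control 2 and -0.30 ± 0.13 in the GC and length fit, where it was not called.

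Desmoglein 2 (Dsg2, ENSMUSG00000044393), the desmosomal cadherin of simple epithelia, stood at 3.66, 4.20 and 4.14 CPM in Pkd1 KO 1 to 3, against 7.73, 11.2 and 6.46 CPM in control 1 to 3. The values rest on 181 to 262 reads per library in Pkd1 KO and 288 to 646 in controls. The groups did not overlap. For Dsg2 the log2 fold change was -1.08 ± 0.22 (SE), -0.86 without control 2 and -0.71 ± 0.17 in the GC and length fit. Reads that overlap a gene on the other strand are left out of the counts used here, and putting them back raised Dsg2 by a factor of 1.06 to 1.12 per library and Dst by 1.03 to 1.07. The fold changes were then -1.09 for Dsg2 and -2.48 for Dst.

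**Figure D2:**
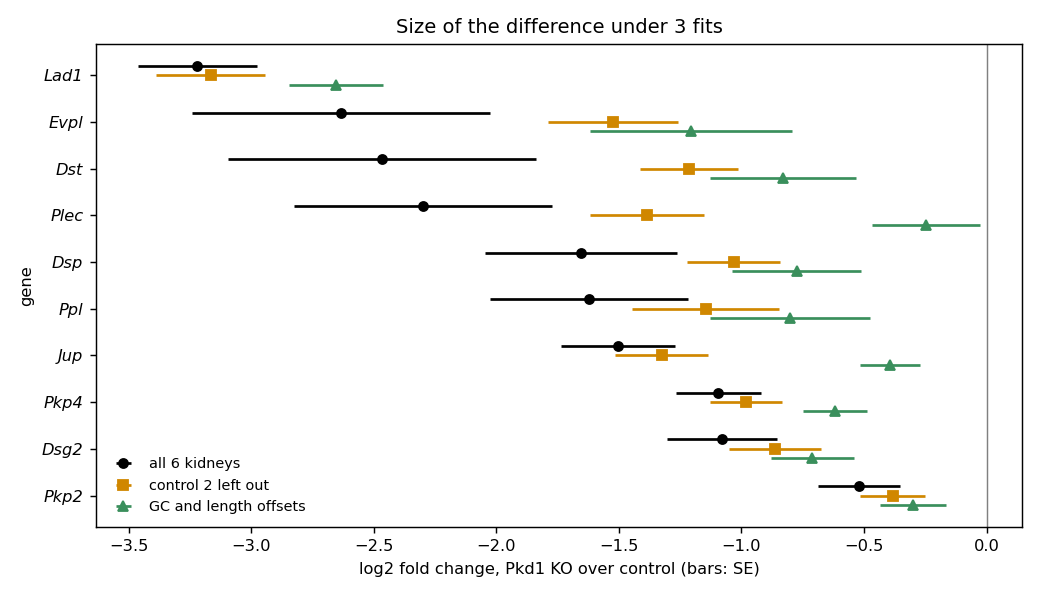
Log2 fold change (Pkd1 KO over control, bars are SE) of each linker gene with all kidneys, without control 2, and in the GC and length fit. Lad1 is the lowest linker gene in all 3 settings, at -3.22, -3.17 and -2.65, while Dst moves to -1.21 without control 2 and -0.83 in the GC and length fit.

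The genes fell into different patterns by how even the controls were. Control 2 was the highest control for 9 of the 10, against 39.6% of all genes tested, Lad1 being highest in control 1. It was 1.2 times the mean of controls 1 and 3 for Lad1, 1.32 for Pkp4, 1.38 for Pkp2, 1.48 for Jup and 1.57 for Dsg2. For Ppl it was 2.25 times, for Dsp 2.73 and for Plec 3.79. Dsp, Dst and Plec lie in the longest eighth of genes. Across all genes the median log2 fold change was 0.65 for the shortest eighth and -0.51 for the longest. By GC content it was 0.56 for the poorest eighth and -0.60 for the richest. The part of this trend in the linker genes' differences was not tested beyond the fit that removes it.

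**Figure D3:**
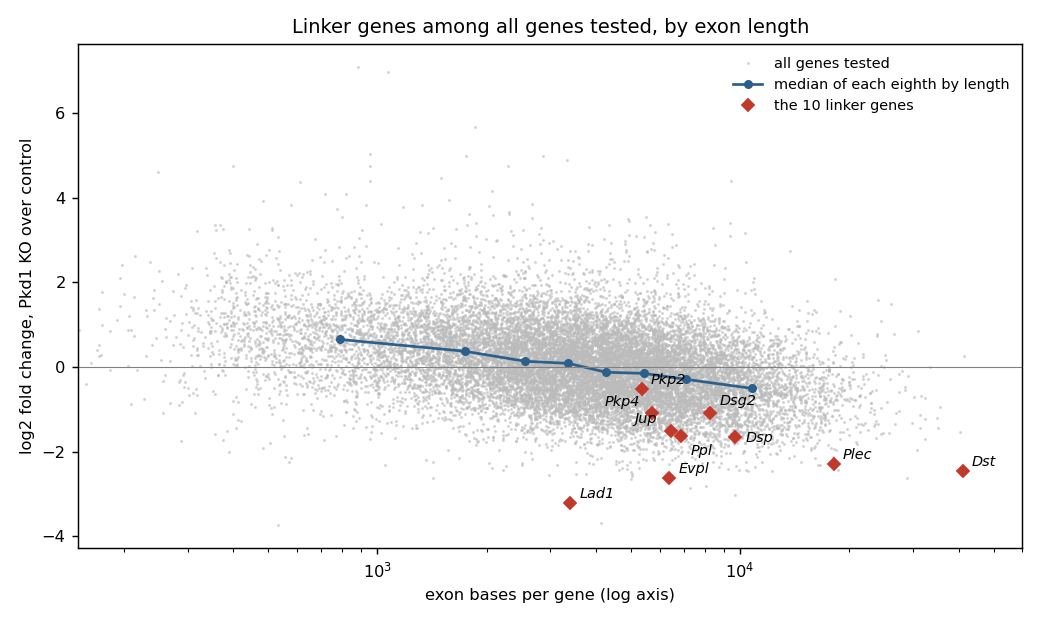
Log2 fold change (Pkd1 KO over control) against exon bases per gene (log axis) for all genes tested, with the 10 linker genes marked. The median of the length eighths runs from 0.65 to -0.51, and all 10 linker genes lie below 0, with Lad1 at -3.22 and 3400 bases.

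The spread between kidneys was smaller in Pkd1 KO than in controls for most linker genes, as it was for most genes tested. The coefficient of variation was smaller in Pkd1 KO than in controls for 9 of the 10, Lad1 being the exception (24.4% against 22.7%), and for 76.5% of all genes tested. Its median over the 10 was 20.0% in Pkd1 KO and 41.9% in controls, where over all genes it was 10.5% and 22.1%. Pkd1 KO 1 was the lowest of the Pkd1 KO kidneys for 6 of the 10 (35.8% of all genes) and the highest for the other 4, which were Lad1, Jup, Pkp2 and Pkp4. Added together, the 10 genes reached 336.4, 334.8 and 326.6 CPM in Pkd1 KO 1 to 3, against 847.8, 1453 and 628.2 CPM in control 1 to 3.

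Levels were compared between genes as CPM per kilobase of exon. In Pkd1 KO kidneys Pkp4 was highest at 32.6 ± 2.40, then Jup at 7.24 ± 0.219, Pkp2 at 4.16 ± 0.303 and Lad1 at 2.76 ± 0.672 (SD, n = 3). In control kidneys the order was Pkp4 at 69.7 ± 13.3, Lad1 at 25.7 ± 5.84, Jup at 20.5 ± 6.64 and Pkp2 at 5.98 ± 1.16 (SD, n = 3). Lad1 thus stood lower in the order in Pkd1 KO than in controls, although its control values overlapped those of Jup. The other 6 genes lay between 0.423 and 1.06 in Pkd1 KO and between 1.02 and 4.70 in controls. In Pkd1 KO, Dsp overlapped Dst, Dst overlapped Plec, Plec overlapped Evpl and Dsg2 overlapped Ppl, while the other neighbours in the order did not overlap. In controls all neighbours overlapped except Pkp4 with Lad1 and Jup with Pkp2. Divided by the longest transcript in place of all exons, Jup (41.2) stood above Lad1 (29.2) in controls.

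Control 1 was sequenced in 2 runs, which shows how far these values differ between runs of the same kidney. For this comparison CPM is reads over the total gene counts of the run, without TMM. The CPM of the second run over the first was between 0.803 (Dsg2, with 75 reads in the second run and 323 in the first) and 1.12 (Jup), and 6 of the 10 genes were within 10%.

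The desmosome genes outside the 10 were mostly scarce in these kidneys. Of 12 other desmosome genes, 5 passed the filter, 2 fell and 1 rose (edgeR, adjusted p under 0.05), where 24.2% of genes tested fell and 22.7% rose, and the median log2 fold change was 0.11. Without Pkd1 KO 2, 0 fell and 0 rose. Plakophilin 3 (Pkp3), the other plakophilin of simple epithelia, had 17.1, 13.1 and 16.8 CPM in Pkd1 KO, against 20.3, 27.4 and 21.8 CPM in controls. Its log2 fold change was -0.56 ± 0.17 (SE, adjusted p = 0.0267), but 0.22 in the GC and length fit (adjusted p = 0.249). The call was also lost when any Pkd1 KO kidney was left out, with adjusted p = 0.0545 without Pkd1 KO 1, 0.117 without Pkd1 KO 2 and 0.0634 without Pkd1 KO 3. Perp, a membrane protein of desmosomes, rose, at 152.8, 147.4 and 136.7 CPM in Pkd1 KO, against 92.6, 85.3 and 119.6 CPM in controls (log2 fold change 0.55 ± 0.16 SE, adjusted p = 0.0207). It was 0.09 in the GC and length fit (adjusted p = 0.563), and the call was lost without control 1 (0.0929) and without Pkd1 KO 1, 2 or 3 (0.0771, 0.0768 and 0.0532).

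The other called gene was Pkp1, named after its values were seen, at a mean of 0.0587 CPM in Pkd1 KO and 0.352 CPM in controls (log2 fold change -2.54, adjusted p = 0.0124, and 0.0547 without Pkd1 KO 2). Desmocollin 2 (Dsc2), the partner cadherin of Dsg2, had a log2 fold change of 0.11 ± 0.22 (adjusted p = 0.714). The epidermal cadherins Dsc1, Dsc3, Dsg1a, Dsg1b, Dsg1c, Dsg3 and Dsg4 did not pass the filter, with 0 to 7 reads in any library.

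Of 10 other hemidesmosome genes and plakins, 9 matched an identifier (Eppk1 is not analysed here) and 8 passed the filter. Of these 5 fell and 1 rose, where 24.2% of all genes fell and 22.7% rose, and the median log2 fold change was -1.11. The genes that fell were the laminin-332 chains Lamb3 and Lama3, the laminin receptors Itgb4 and Itga3, and Macf1, a plakin that joins actin to microtubules. The count was 3 without Pkd1 KO 1, 2 or 3, where Macf1 (adjusted p = 0.097, 0.0658 and 0.0729) and Lama3 (0.104, 0.0658 and 0.112) lost their calls. Without control 2 the log2 fold changes were -0.63 for Macf1, against -1.43 with all kidneys, and -0.49 for Lama3, against -1.02. Lamb3 had 1.60, 1.28 and 3.28 CPM in Pkd1 KO, against 3.92, 7.78 and 9.04 CPM in controls (log2 fold change -1.75 ± 0.41 SE, adjusted p = 0.00908). Itgb4, integrin β4, had 1.46, 2.10 and 2.37 CPM in Pkd1 KO, against 4.97, 8.49 and 3.75 CPM in controls (-1.54 ± 0.33 SE, adjusted p = 0.00621). No gene of this list was called lower in the GC and length fit (17.4% of all genes were), where Lamb3 was at -0.96 (adjusted p = 0.1) and Itgb4 at -0.28 (adjusted p = 0.335). The tetraspanin Cd151, which binds laminin-binding integrins, rose, at 201.3, 183.4 and 192.7 CPM in Pkd1 KO, against 121.0, 97.3 and 149.5 CPM in controls (0.65 ± 0.17 SE, adjusted p = 0.0152). It was also called higher in the GC and length fit (0.78, adjusted p = 0.00587), where 17.1% of all genes were. Without control 1 and without Pkd1 KO 1, 2 or 3 its adjusted p was 0.0627, 0.0588, 0.0503 and 0.0526. Col17a1, the transmembrane collagen of hemidesmosomes, had 2 to 13 reads per library in Pkd1 KO and 0 to 16 in controls.

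Neighbouring junctions gave further context. Of 13 tested adherens junction genes (Arvcf is not analysed here) 10 fell and 0 rose, where 24.2% of all genes fell and 22.7% rose, with a median log2 fold change of -0.72. The count lower was 6 without Pkd1 KO 2 and 4 in the GC and length fit, where 17.4% of all genes were lower. N-cadherin (Cdh2) had 2.37, 2.74 and 2.59 CPM in Pkd1 KO, against 5.03, 7.85 and 6.51 CPM in controls (-1.33 ± 0.21 SE, adjusted p = 0.0028, and -0.84 in the GC and length fit, adjusted p = 0.0105). Nectin1 was at -1.58 ± 0.32 (adjusted p = 0.00535) and at -0.50 in the GC and length fit (adjusted p = 0.0707). Of 14 tight junction plaque genes 6 fell and 0 rose, with a median of -0.37, against the same 24.2% and 22.7% of all genes. In the GC and length fit 3 were called lower, near the 17.4% of all genes. The tight junction genes that fell were led by the scaffold Patj (-1.58 ± 0.33, adjusted p = 0.00564) and by cingulin, Cgn (-1.43 ± 0.34, adjusted p = 0.00908). In the GC and length fit Patj was at -0.65 (adjusted p = 0.0176) and Cgn at -0.64, where its call was lost (adjusted p = 0.0619).

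The linkers' filament partners differed from one another. Of 15 tested keratins and other intermediate filaments 6 fell and 1 rose, where 24.2% of all genes fell and 22.7% rose, with a median log2 fold change of -0.41. In the GC and length fit 3 fell and 1 rose, where 17.4% of all genes fell and 17.1% rose, so the share that fell was near that of all genes. Krt8, the keratin of simple epithelia to which tubular desmosomes attach, fell (-0.75 ± 0.14 SE, adjusted p = 0.004), while its partner Krt18 was at -0.10 ± 0.30 (adjusted p = 0.803). Both were picked from the list after their values were seen. Nestin (Nes), a filament protein of podocytes in the adult kidney, fell by 1.95 on the log2 scale (± 0.47 SE, adjusted p = 0.00985). It was at -1.34 without control 2, at -1.02 in the GC and length fit (adjusted p = 0.0451), and at -0.57 in that fit without control 2, where the call was lost (adjusted p = 0.114). Synemin (Synm) was at -1.15 ± 0.42 (adjusted p = 0.048, -0.57 without control 2, and -0.45 with adjusted p = 0.326 in the GC and length fit), a call lost on leaving out any kidney but control 3, with adjusted p = 0.054 without control 1, 0.169 without control 2, and 0.144, 0.0935 and 0.11 without Pkd1 KO 1, 2 and 3. Krt20, a urothelial keratin that also rises in injured tubules, was the gene that rose, at a mean log2 CPM of -0.08 over all kidneys (2.28 ± 0.59 SE, adjusted p = 0.0127, and 0.0597 without Pkd1 KO 2).

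Of 16 other large cytoskeletal linkers, spectrins, ankyrins, talins and the like, 14 fell and 1 rose, where 24.2% of all genes fell and 22.7% rose, with a median log2 fold change of -1.33, and 9 fell without Pkd1 KO 1. In the GC and length fit 3 fell and 2 rose, shares near the 17.4% and 17.1% of all genes, and the list median was -0.20. The non-muscle myosin Myh14 had 4.71, 6.82 and 7.39 CPM in Pkd1 KO, against 27.4, 91.8 and 17.95 CPM in controls (-2.86 ± 0.55 SE, adjusted p = 0.00457, -1.88 without control 2, and -1.40 in the GC and length fit, adjusted p = 0.0151). Dystrophin (Dmd), the gene that rose, was at 0.77 ± 0.15 (adjusted p = 0.00476), and at 1.13 in the GC and length fit (adjusted p = 0.004). The other gene that rose in the GC and length fit was Flna, at 0.82 (adjusted p = 0.00719). Flna was at -0.09 with GC content and length left in (adjusted p = 0.586). Of 13 epithelial transcription and splicing factors 5 fell (Grhl2, Ehf, Elf3, Esrp1 and Esrp2) and 0 rose, against 24.2% and 22.7% of all genes, with a median of -0.55. The count was 3 without Pkd1 KO 2, where Elf3 (adjusted p = 0.112) and Esrp2 (0.0854) lost their calls, and 2 in the GC and length fit, near the 17.4% of all genes. Elf3 also missed without Pkd1 KO 1 (0.12) and control 1 (0.0611), and Esrp2 without Pkd1 KO 3 (0.0766). Ehf was at -1.02 ± 0.24 (adjusted p = 0.00881, and -1.35 in the GC and length fit), and Grhl2, which controls junction genes in epithelia, at -0.98 ± 0.20 (adjusted p = 0.00528, and -0.38 in the GC and length fit, adjusted p = 0.107).

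**Figure D4:**
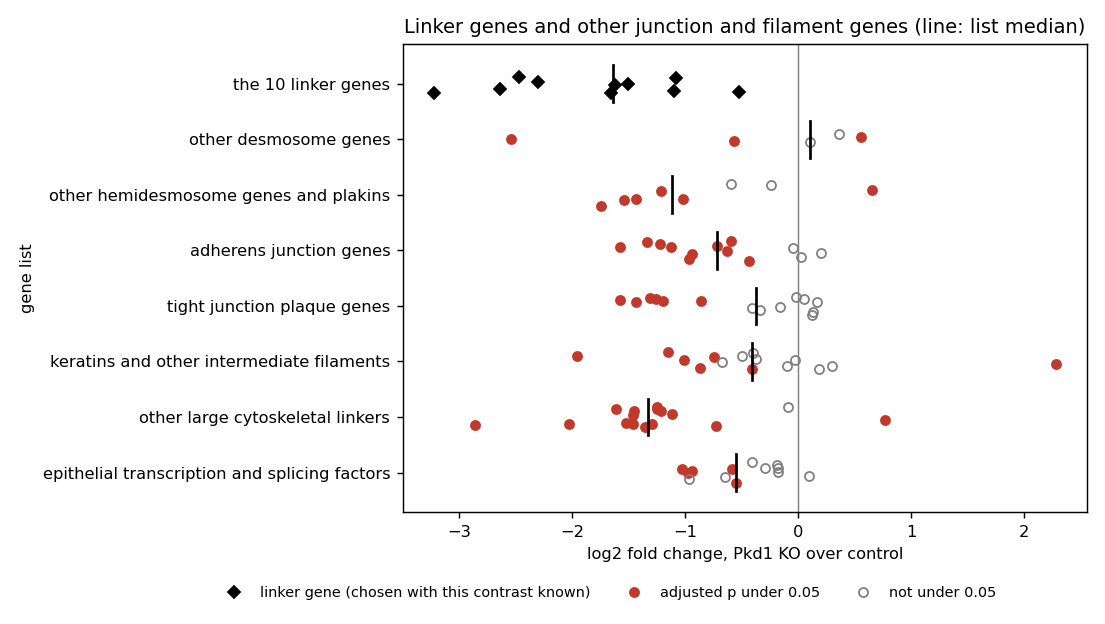
Log2 fold change (Pkd1 KO over control) of the 10 linker genes and of the genes of 7 other lists that passed the filter, 1 point per gene, with the list median as a bar. The linker genes have a median of -1.64, the other large cytoskeletal linkers -1.33, and the other desmosome genes 0.11.

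Many markers of the cells that could hold these transcripts differed between Pkd1 KO and control kidneys as well. Marker calls come from the fit with GC content and length left in. In that fit 24.2% of all genes tested were called lower and 22.7% higher. Summed CPM of 8 proximal tubule markers was 6813 to 8224 in Pkd1 KO and 11840 to 17650 in controls, with 7 called lower and 0 called higher. Within this sum Lrp2 had 3350 CPM in control 2, against 1230 and 681 CPM in controls 1 and 3. Of 5 distal convoluted tubule markers 4 were lower (613.2 to 725.2 CPM in Pkd1 KO and 1431 to 1897 CPM in controls), and of 6 tested principal cell markers 5 were lower (437.0 to 540.6 CPM in Pkd1 KO and 646.7 to 762.8 CPM in controls). Of 6 thick ascending limb markers 3 were lower and 1 higher, at 2079 to 2610 CPM in Pkd1 KO and 3841 to 4749 CPM in controls, and of 6 intercalated cell markers 3 were lower and 1 higher, at 233.2 to 239.1 CPM in Pkd1 KO and 262.4 to 316.5 CPM in controls. Podocyte markers had 4 of 5 lower, at 164.3 to 190.0 CPM in Pkd1 KO and 215.4 to 385.0 CPM in controls, and endothelial markers 4 lower and 2 higher of 6, at 300.9 to 306.7 CPM in Pkd1 KO and 324.3 to 365.8 CPM in controls.

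Macrophage markers summed to 189.2 to 305.3 CPM in Pkd1 KO and 105.6 to 138.8 CPM in controls. Of these 7 markers 4 were higher and 1 lower, where 22.7% of all genes were higher and 24.2% lower. Smooth muscle and fibroblast markers had 2 higher and 2 lower of 7, shares near those of all genes. Their sums were 213.5 to 302.0 CPM in Pkd1 KO and 182.8 to 223.1 CPM in controls. Urothelium, which is rich in desmosomes, gave overlapping sums of 16.2 to 42.5 CPM in Pkd1 KO and 16.96 to 33.8 CPM in controls, with 1 of 8 markers, Krt20, higher. Stratified squamous markers summed to 23.0 to 24.4 CPM in Pkd1 KO and 11.2 to 15.1 CPM in controls, nearly all of it Krt10, the 1 marker called, and Krtdap, Dsg3 and Dsc3 had at most 2 reads in any library. Striated muscle markers, which bear on Dst, Plec and Pkp2, summed to 0.426 to 0.566 CPM in Pkd1 KO and 0.314 to 1.23 CPM in controls. The part of tubule cell content in the linker genes' lower levels was not tested.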

How the data were processed

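Messenger RNA was sequenced from 6 kidneys, and the authors deposited gene-wise raw counts in 1 table for each run, not normalized. Tools named by the submitters' processing notes were STAR 2.6.1e, cutadapt 4.0 and FastQC 0.11.8, on build GRCm39. The sources used here name no gene annotation. Since the first strand held 49.1% to 50.0% of stranded reads, the unstranded column was used. Lines naming no gene held 25.3% to 26.3% of reads in Pkd1 KO and 22.9% to 23.8% in controls and were left out. Both runs of control 1 (39142952 and 11313677 counts) were summed. Groups and numbers came from the sample titles. P-values set the difference between the groups against the spread between kidneys of a group, and do not separate genotype from sequencing project.

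Symbols, exon lengths and GC content came from GENCODE M21, an older build, joined by identifier (52073 of 56923 had a symbol).

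Pkd1 KO was tested against control with edgeR 4.0.16 in R 4.3.3 (filterByExpr, TMM, quasi-likelihood test, Benjamini-Hochberg at 0.05). The common biological coefficient of variation was 21.4%. SE is the absolute log2 fold change over the square root of F. The GC and length fit added a loess surface (span 0.3) per library as an offset for 17785 genes. Scripts were tested on simulated data. DESeq2 1.42.0 and the other alternatives are in the closing section.

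The 10 genes and the lists were chosen with earlier results of these data known. In each list the rule named up to 2 called genes per direction, by size, where the mean log2 CPM was 0 or more. The result of 1 gene that the rule named is not reported here. Genes nearest Lad1 and Evpl were those with the smallest mean absolute difference over the 6 kidneys in log2 CPM (prior count 2) centred per gene, among 11079 protein-coding genes at a mean log2 CPM of 2 or more. Genes named outside the rule (Pkp1, Dsc2, Krt8, Krt18, Krt20, Itga3, Lama3, Macf1, Flna, Elf3, Esrp1, Esrp2, and genes below the filter) were chosen after their values were seen. Correlations over genes of same-numbered kidneys, as deviations from the group mean, were 0.038, -0.084 and -0.029. With 3 kidneys in each group these values cannot show whether same-numbered kidneys were paired, and the reported fit did not pair them.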

Additional observations from a re-analysis of the deposited data

How the results depend on the processing

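Over 17 alternatives the 10 linker genes gave 170 log2 fold changes, of which 169 were below 0. Of these values 42 differed from the reported one by more than the spread between kidneys, and 1 was reversed, Plec at 0.0212 in the GC and length fit without control 2. The cause was not tested. The number called lower was 6 in the GC and length fit and 5 in that fit without control 2, and 8 to 10 on leaving out 1 kidney each. The median was -0.74 in the GC and length fit, -0.71 with the replicate block added, -0.42 without control 2 and -0.74 with a quadratic surface, which was chosen after seeing the data. Leaving out 1 kidney each it was -1.90 to -1.18. Groups were apart for 7 of 10 in the GC and length fit with or without control 2, and for 10 in the other settings run. Over all genes 2684 fell and 2716 rose with the replicate block in the GC and length fit, against 4431 and 4148 as reported. Leaving out 1 kidney each gave 2731 to 5441 lower and 2340 to 4877 higher, both lowest without Pkd1 KO 2, and 2635 higher without control 1.

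With the GC and length fit, with or without the replicate block, control 2 or the quadratic surface, calls for other desmosome genes were 1 lower and 0 higher, for adherens junctions 4 lower (and 1 higher with the replicate block), for tight junction plaques 3 lower, for intermediate filaments 3 lower (2 without control 2), for large linkers 3 lower and 2 higher, and for epithelial factors 2 lower. Other hemidesmosome genes had 0 lower, and 1 with the replicate block. Other desmosome genes also had 1 lower under upper-quartile scaling and under the replicate block. Leaving out 1 kidney each gave 0 to 2 lower and 0 to 1 higher for other desmosome genes, 3 to 7 lower and 0 to 1 higher for hemidesmosome genes, 6 to 10 lower for adherens junctions, 5 to 8 lower for tight junctions, 4 to 6 lower and 0 to 1 higher for filaments, 9 to 14 lower for large linkers, and 3 to 7 lower for epithelial factors. Of 272 recomputed values of the 16 list genes that the rule named, 220 kept direction and call, 48 lost the call and 4 reversed. The reversals were Pkp3 at 0.22 in the GC and length fit, 0.22 with the replicate block, 0.24 without control 2 and 0.20 with the quadratic surface.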

Other observations

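Genes outside the list whose pattern over the 6 kidneys was most like that of Lad1 differed from those most like Evpl. The likeness is the mean absolute difference in centred log2 CPM, a description over 6 kidneys that share their libraries. For Lad1 the nearest were Atp4a (0.354), a subunit of the gastric proton pump, the transporters Slc38a3 (0.428) and Slc13a3 (0.488), Casr (0.442), the calcium-sensing receptor, and Reep6 (0.456). Atp4a had 8.77, 9.30 and 6.68 CPM in Pkd1 KO, against 45.7, 58.2 and 38.0 CPM in controls. Slc13a3, the dicarboxylate transporter of the proximal tubule, had 163.7, 120.7 and 111.4 CPM in Pkd1 KO, against 770.7, 620.9 and 482.8 CPM in controls. In both genes, as in Lad1, the Pkd1 KO kidneys lay far below all 3 controls, which follows from picking them for their likeness to Lad1. The nearest of the other 9 linker genes to Lad1 were Evpl (0.835) and Plec (0.846).

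For Evpl the nearest outside the list were Cep250 (0.131), a centrosome protein, the cadherins Celsr2 (0.141) and Celsr1 (0.199), Trim56 (0.153) and the myosin Myh14 (0.171). All are long, with 7273 to 11513 exon bases against a median of 3787 over all genes. Their GC content was 50.3% to 60.8%, against a median of 49.4%. The part of length and GC content in this likeness was not tested. Celsr2 had 12.7, 13.9 and 18.9 CPM in Pkd1 KO, against 51.1, 136.1 and 29.6 CPM in controls. Control 2 was highest as in Evpl, which again follows from the way the genes were picked. Among the linker genes Plec (0.148) and Dst (0.154) were as near to Evpl as these.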
